A study of Mus musculus with 45 samples.

Results

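Cluster C10 of the authors' single-nucleus accessibility data from Ter119+ erythroblasts is described here through its nuclei from mice with a deleted Stag2 gene (KO). Its members were the nuclei that the deposited table of nuclei assigned to cluster C10 and to the genotype Stag2 KO. They numbered 2972 of 34073 nuclei in all, and of 14399 KO nuclei. KO replicates 1, 2 and 3 gave 1045, 814 and 1113 of them. These were 21.5% (95% Wilson interval 20.4 to 22.7), 17.6% (16.6 to 18.8) and 22.6% (21.5 to 23.8) of the nuclei of each library, and the intervals cover counting error only. The authors' class was Int, read here as intermediate, for 2965 of the nuclei and Late for 7. WT libraries gave 0 nuclei of 6865, 0 of 5819 and 2 of 6990 to C10, and a count of 0 allows a share of up to 0.0437% and 0.0516% in the first and the second of them.

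The study compared mice with an intact Stag2 gene (WT) with mice in which it had been deleted (KO). Both genotypes were given pIpC, the agent used to switch on the deletion, and were taken 6 to 8 weeks after its last dose. Nuclei came from sorted erythroblasts that carry Ter119, a surface protein of red cell precursors, and 3 KO and 3 WT accessibility (ATAC) libraries were made with the 10x Genomics multiome assay. The labels used here give no Cre driver, strain, age, sex or number of animals per library, so the spread between libraries may be partly technical. C10 was compared with the KO nuclei of 3 other clusters of the same 3 libraries. C8 held 2020 KO nuclei (2017 Int), C5 held 1698 (1677 Int) and C2 held 7070 (7035 Late). Since every group of nuclei came from KO libraries, all of them carry the KO label and had the pIpC treatment. Whether each nucleus carries the deletion was not checked.

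Erythroblasts are the nucleated precursors of red cells. As they mature, the transcription factors Gata1 and Klf1 open and drive the globin, heme and membrane genes, progenitor genes such as Gata2, Kit and Myc are shut down, the chromatin condenses and the nucleus is finally expelled. Transferrin receptor, encoded by Tfrc, brings in the iron that heme needs. Cohesin, a ring-shaped complex, extrudes and holds chromatin loops; Stag2 is 1 of its subunits, and the related Stag1 can take the same place.

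The value analysed was the gene score, a signal of ATAC fragments around a gene that measures accessibility and not expression. Genes close together draw on the same fragments and are not separate observations. For each library the mean score over a cluster's nuclei was taken and rescaled so that all genes sum to 1000000, and every score below is on that scale. Differences are log2(score + 1) in C10 minus the same in the other cluster of the same library, as mean ± SD over 3 libraries. A gene is called higher or lower where the mean difference was at least 0.5 and its sign was the same in all 3 libraries. The authors formed the clusters from these same nuclei, so differences between clusters are a description and no test was made.

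C10 nuclei lay between C8 and the shallower clusters in depth. The median number of fragments per nucleus was 15244, 14911.5 and 16077 in KO replicates 1, 2 and 3, against 20901, 21520 and 21238 in C8, 5033.5, 4940 and 4745 in C5 and 6091.5, 6144 and 6594 in C2. C8 stood above C10, and C5 and C2 below it, in every library. Enrichment at transcription start sites was 33.2, 33.3 and 33.5 in C10 and lower in each library of C8, at 27.0, 27.0 and 27.9. It was 31.5, 31.4 and 32.1 in C5 and 32.5, 32.7 and 33.2 in C2. The share of fragments in promoters was 45.6, 46.8 and 46.3% in C10, 39.0, 39.7 and 40.1% in C8, 43.9, 45.0 and 45.7% in C5 and 48.3, 48.9 and 49.8% in C2. C10 stood above C8 and below C2 in every library here. The share in peaks was 56.6, 57.9 and 57.6% in C10 and followed the same order of clusters, from C8 at 51.6, 52.5 and 52.5% to C2 at 60.3, 60.7 and 61.8%, with C5 at 55.1, 55.7 and 57.3%. The share of nuclei with a doublet score above 0 was 21.8, 58.1 and 48.7%, so replicate 1 stood lowest, and in C8 it was 36.8, 47.0 and 37.8%. It was lower in every library of C5, at 12.9, 10.9 and 6.47%, and of C2, at 11.5, 25.4 and 19.2%. Doublets were not removed here beyond what the authors had done. Of the C10 nuclei, 135 (4.54%) had a barcode that also occurred in another library, against 4.34% of all nuclei, and 61 of them shared it with another KO library.

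**Figure D1:**
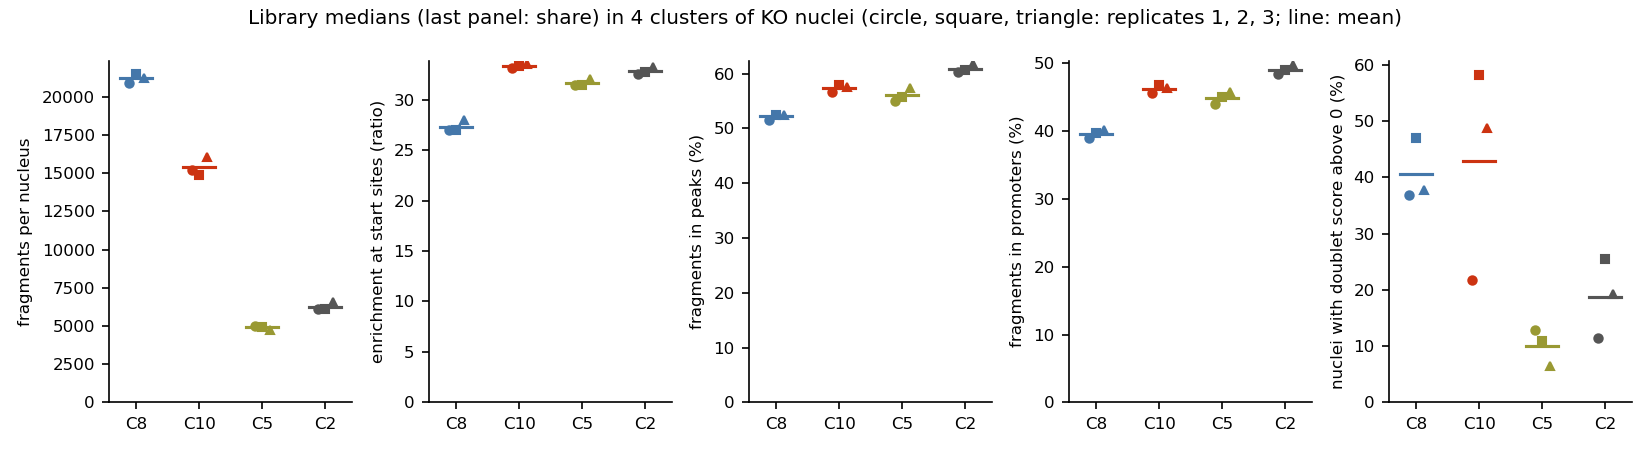
Medians of fragments per nucleus, enrichment at start sites (a ratio), percent of fragments in peaks and percent in promoters, and the percent of nuclei with a doublet score above 0, for KO nuclei of clusters C8, C10, C5 and C2; points are the 3 libraries and lines their means. C10 nuclei held 14911.5 to 16077 fragments, fewer than C8 and more than C5 or C2 in every library.

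The 3 markers given for these cells were accessible in every library. The score of Klf1, the master activator of red cell genes, was 217, 223 and 232 in C10. That of Gata1 was 75.2, 76.5 and 81.0 and that of Tfrc 146, 141 and 147. None of the 3 was called against any of the other clusters. Klf1 differed by 0.021 ± 0.064 from C8, -0.17 ± 0.10 from C5 and 0.25 ± 0.038 from C2, and Gata1 by -0.081 ± 0.054, -0.061 ± 0.12 and 0.26 ± 0.018. Tfrc differed by -0.0019 ± 0.029, -0.19 ± 0.062 and 0.024 ± 0.033. Erythroid markers were thus present, and their scores do not set C10 apart from the other KO clusters. The signs of all 3 differences from C8 turned under at least 1 other scaling, and that of Tfrc from C2 turned after median centring. The score over Stag2 was 54.6, 57.2 and 56.4 in C10. Which part of the gene this score covers is not given in the sources used here, so it does not check the deletion.

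Lists of marker genes of other blood and stromal cells were also summed in each cluster, and none held a gene listed at 0 in all 3 libraries of C10. The summed score of the 19 neutrophil and monocyte genes was 261 to 278 over the 3 libraries of C10, 319 to 328 in C8, 259 to 289.6 in C5 and 327 to 361 in C2. 15 of these 19 genes reached a mean of 5 in C10, and 13 in C2. Much of the sum came from Cebpe, which differed by -0.68 from C2. The list's median difference from C2 was -0.040, a sign that depended on the processing. The higher sum in C2 thus does not describe the list as a whole. Of the 19, Cebpe, a granulocyte factor, was at 115 ± 7.31 in C10 and 105 ± 2.90 in C8, Elane at 20.8 ± 1.84 and 27.4 ± 1.34, and Lyz2 at 4.21 ± 0.628 and 7.35 ± 0.948 (SD, n = 3). Sums for the other lists are given in the order C10, C8, C5 and C2. For 16 macrophage genes they were 233 to 242, 244 to 257, 237 to 243 and 218 to 224. For 16 megakaryocyte and platelet genes they were 440.1 to 459, 518 to 543, 421 to 493 and 434 to 449. C8 was the highest of the 4 clusters in both of these lists. For 13 mast cell and basophil genes they were 108 to 109.8, 138 to 142, 103 to 116 and 79.4 to 82.4, and for 14 B cell genes 177 to 200.0, 229.9 to 235, 188 to 215 and 140.2 to 147. For 15 T and NK cell genes they were 210.0 to 227, 260.3 to 271, 211 to 239.8 and 224 to 225, and for 14 endothelial and stromal genes 244 to 254, 273 to 277, 234 to 273 and 219.6 to 224. All 7 lists summed to less in C10 than in C8 in each library. The part of such cells in the differences between clusters was not tested.

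Against C2, the Late cluster, C10 had far lower scores over genes of terminal maturation. Of 17963 genes measured, 747 (4.16%) were called lower in C10 and 3501 (19.5%) higher. With each cluster centred on its median gene these counts were 1644 and 2439 (1651 and 2029 after quantile normalization), a shift of -0.15 in the median gene, so the balance of the directions depends on the scaling. Of the late maturation and organelle clearance list, 14 of 30 genes were lower and 0 higher. The list's median was -0.48, beside 0.078 over all genes measured, and it ran from -0.63 to -0.38 over the other ways of processing. Across all genes measured, the difference from C2 and the score level had a Spearman rho of -0.40, as a description of genes that are not independent. The part of score level in this list and in those below was not tested.

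The largest of these differences was at Xpo7, a nuclear export receptor of late erythroblasts that helps the nucleus condense. Its score was 70.4, 75.4 and 72.8 in C10 (replicates 1, 2 and 3) and 340.1, 329 and 353 in C2. The 2 clusters lay far apart in every library, and C2 was 4.62-fold higher on the log2(score + 1) scale, a difference of -2.21 ± 0.085. In C8 the score of Xpo7 was 59.6, 71.9 and 69.0, which overlaps C10. In C5 it was 50.7, 69.5 and 60.5, below C10 throughout. Tmcc2, a membrane protein gene, showed the same form. Its score was 228, 239 and 233 in C10 and 702, 709.6 and 722 in C2, a difference of -1.60 ± 0.033, whereas C8 was at 201, 207 and 214. Ube2h and Ube2o, ubiquitin-conjugating enzymes that act in the remodelling of the reticulocyte proteome, were 111 ± 2.86 and 203 ± 6.46 in C10 against 306 ± 4.75 and 426 ± 19.0 in C2 (SD, n = 3). Their differences were -1.45 ± 0.016 and -1.07 ± 0.02. Bpgm, which makes the 2,3-bisphosphoglycerate that tunes oxygen release, differed by -0.95 ± 0.075. Bcl2l1, the survival factor of late erythroblasts, differed by -0.87 ± 0.029. Among autophagy and mitochondrial clearance genes, Sqstm1 differed by -0.85 ± 0.084, Ulk1 by -0.74 ± 0.055 and Bnip3l by -0.64 ± 0.034. Late genes that were not called included Fbxo7 at -0.07 ± 0.098, Hdac6 at 0.00029 ± 0.067 and the peroxiredoxin gene Prdx2 at -0.087 ± 0.028, and the signs of Hdac6 and Prdx2 depended on the processing.

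Globin genes were also lower in C10 than in C2. Of 9 measured, 5 were called lower and 0 higher, with a median of -0.51. Over all genes measured 4.16% were lower and 19.5% higher. Hba-a1, an adult alpha globin gene, had a score of 129, 151 and 145 in C10 and 227, 244 and 238 in C2, a difference of -0.74 ± 0.065. Its near-identical copy Hba-a2 differed by -0.72 ± 0.03, and how the authors placed reads that match both is not given in the sources used here. The adult beta globin gene Hbb-bs was 246, 274 and 278 in C10 and 355, 379 and 377 in C2, and its difference of -0.48 ± 0.047 fell just short of the size rule. Its neighbour Hbb-y, an embryonic gene in the same locus, differed by -0.16 ± 0.095, a sign that quantile normalization turned, and Hbb-bt had no row in the table. The heme synthesis list, which also holds carrier and heme breakdown genes, differed less: 2 of 16 genes were lower and 0 higher, with a median of -0.094. Alas2, which starts heme synthesis in red cells, was 88.4, 87.2 and 88.1 in C10 and 109, 106 and 104 in C2, a difference of -0.27 ± 0.027. Blvrb and Slc25a39 were those called, at -0.56 ± 0.077 and -0.50 ± 0.053. Both fell short of the size rule after quantile normalization, at -0.42 and -0.34.

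Genes of the red cell membrane were called in both directions against C2. Epb41, which encodes protein 4.1 of the membrane skeleton, was 267, 284 and 277 in C10 and 545, 545 and 503 in C2, a difference of -0.94 ± 0.084. The anion exchanger Slc4a1 (band 3) was 357, 366 and 354 in C10 and 518, 529 and 509 in C2, a difference of -0.53 ± 0.0052. The water channel Aqp1 went the other way, with 191, 209 and 203 in C10 and 95.5, 85.7 and 89.3 in C2, a difference of 1.15 ± 0.14. Beta spectrin, Sptb, differed by 0.53 ± 0.0026 and the Kell-associated gene Xk by 0.50 ± 0.0094. In all, 3 of 23 membrane genes were higher and 2 lower, and the list's median of -0.013 turned sign under quantile normalization. Over all genes measured 19.5% were higher and 4.16% lower. After median centring Sptb was at 0.38 and Xk at 0.35, both short of the size rule, and Slc4a1 was at -0.49 after quantile normalization. Of 16 iron genes, 2 were higher, a smaller share than over all genes, and 0 lower: Erfe, the erythroid hormone that lowers hepcidin, at 0.75 ± 0.13, and the ferrireductase Steap3 at 0.58 ± 0.011. Steap3 fell short of the size rule after median centring, at 0.42.

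Among erythroid transcription factor genes against C2, 3 of 21 were called higher in C10 and 2 lower. Over all genes measured 19.5% were higher, a larger share, and 4.16% lower. The list's median of 0.12 was -0.027 after median centring. Hemgn, an erythroid nuclear factor, had a score of 175, 187 and 201 in C10 and 86.9, 92.5 and 97.0 in C2, a difference of 1.02 ± 0.023. Gfi1b, a repressor that erythroid and megakaryocyte cells require, was 123, 132 and 132 and 61.1, 66.1 and 72.9, a difference of 0.95 ± 0.084. Ikzf1 differed by 0.97 ± 0.12. These were those called higher. Lmo2 at -0.50 ± 0.088 and Foxo3 at -0.56 ± 0.029 were called lower. After quantile normalization they were at -0.43 and -0.40, short of the size rule. Of the stem, progenitor and early erythroid list, 11 of 27 genes were higher and 3 lower, with a median of 0.44. That median was 0.069 among genes with a mean of at least 20, 0.17 after quantile normalization and 0.17 in nuclei matched on fragments. Some marker lists of other cells also had positive medians against C2, at 0.57 for endothelial and stromal genes (7 of 12 higher, with a median below 0 among genes with a mean of at least 20) and 0.38 for B cell genes (4 of 9 higher), whereas T and NK cell genes were at -0.11. The stem cell factor receptor Kit was 14.1, 14.2 and 14.8 in C10 and 6.95, 8.50 and 7.48 in C2, low in both, with a difference of 0.83 ± 0.14. The 3 lower genes were Gfi1 and the pair Csf2rb and Csf2rb2, neighbouring receptor genes, the first of the pair at -1.37 ± 0.23.

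Of the cell cycle genes, 6 of 39 were called higher in C10 than in C2 and 0 lower, and 31 had a mean difference above 0. Over all genes measured 19.5% were called higher, a larger share, and 58.1% lay above 0. The list's median was 0.20 and ran from 0.051 to 0.26 over the alternatives. Cdk1, the kinase that drives entry into mitosis, was 80.0, 77.1 and 85.2 in C10 and 36.1, 35.8 and 36.4 in C2, a difference of 1.14 ± 0.06. Tyms at 0.89 ± 0.20, Rrm1 at 0.84 ± 0.05 and Mcm6 at 0.75 ± 0.051, which serve nucleotide supply and replication, were also called. Of 42 Hist1 histone genes measured, 21 were higher and 0 lower, with a median of 0.50. They lie on 1 chromosome, and the median was 0.35 after median centring, 0.58 after quantile normalization and 0.70 in nuclei matched on fragments. Among cohesin genes, Stag1 was 124, 125 and 124 in C10 and 56.1, 60.0 and 58.9 in C2, a difference of 1.08 ± 0.044. The cohesin cofactor Pds5a differed by 0.72 ± 0.14, and these were the 2 of 17 genes of the cohesin and CTCF list that were called, a smaller share than the 19.5% over all genes. Core subunits Smc3 and Rad21 differed by 0.034 ± 0.036 and 0.0072 ± 0.031, with signs that median centring turned.

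Integrated stress response genes were lower in C10 than in C2 in 8 of 23 cases and higher in 2. Their median was -0.30 and ran from -0.45 to -0.20 over the alternatives. Trib3, a pseudokinase target of this response, was 27.1, 25.8 and 35.4 in C10 and 57.1, 67.9 and 69.9 in C2, a difference of -1.12 ± 0.21. Chac1 and Ddit4 differed by -0.79 ± 0.28 and -0.71 ± 0.025, and the heme-regulated kinase Eif2ak1 by -0.60 ± 0.029. Atf4, the factor that carries the response, was listed at 0 in every nucleus. Of the cytokine receptor and STAT5 list, 6 of 21 genes were lower and 3 higher, and the erythropoietin receptor gene Epor differed by 0.10 ± 0.062, a sign that median centring turned. Interferon genes gave 1 higher and 3 lower of 30, and p53 targets 3 higher and 0 lower of 20. Immediate early genes gave 5 higher and 2 lower of 27. The higher counts of these 3 lists are shares below the 19.5% over all genes measured, of which 4.16% were lower. Nr4a3, a nuclear receptor of that list, was 70.8, 71.6 and 67.2 in C10 and 26.7, 23.6 and 23.5 in C2, a difference of 1.47 ± 0.093.

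**Figure D2:**
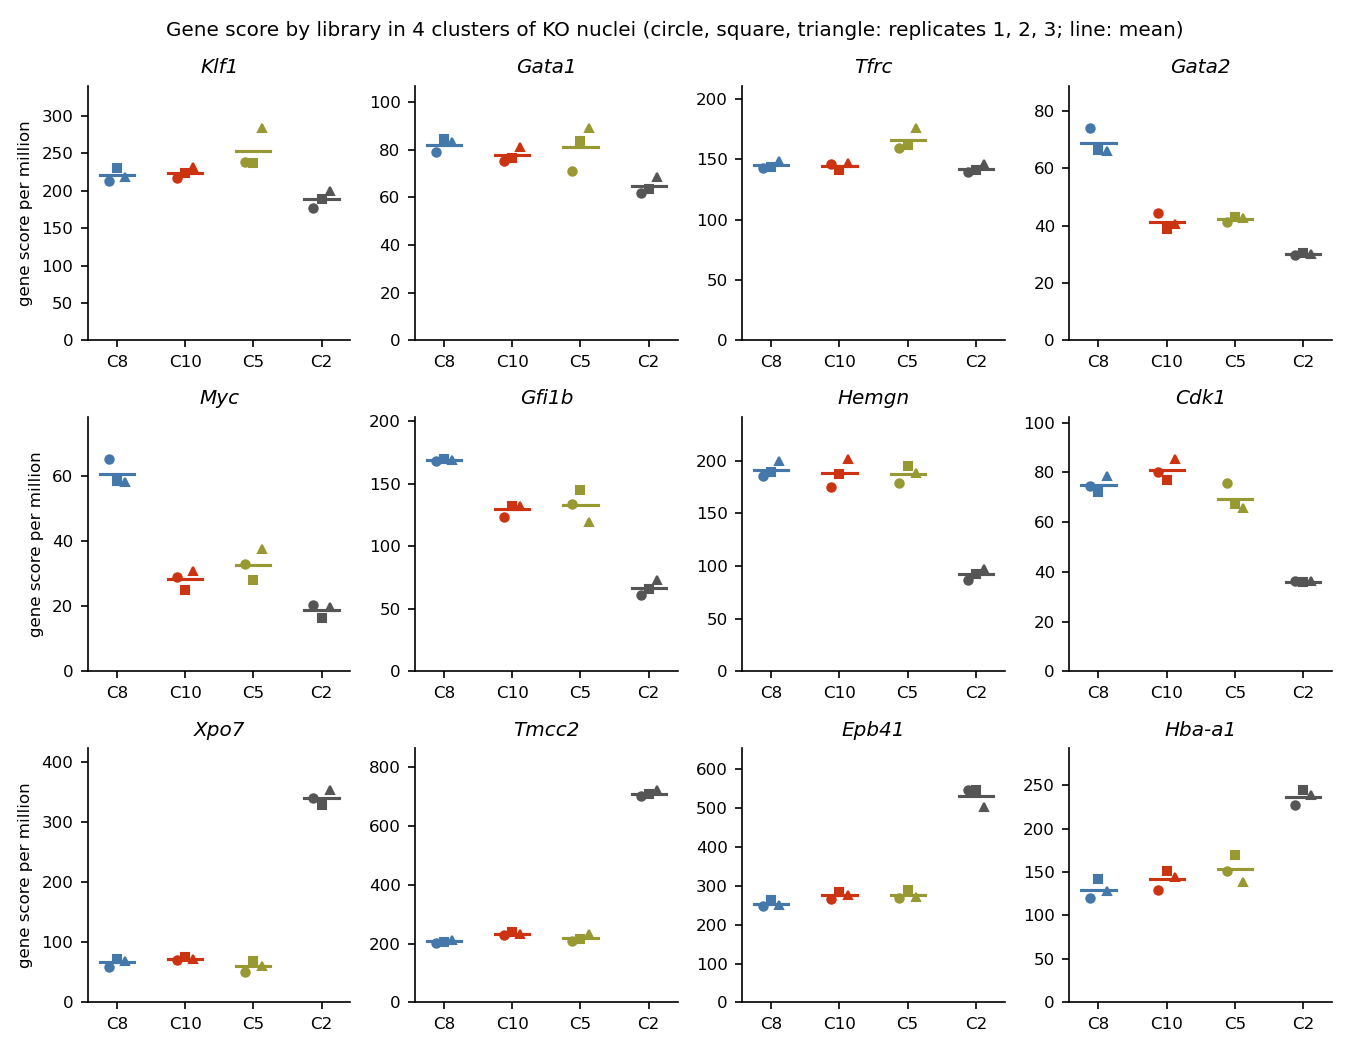
Gene score, scaled to sum to 1000000 over genes (vertical axis, from 0), of 12 genes in KO nuclei of clusters C8, C10, C5 and C2; points are the 3 libraries and lines their means. Xpo7, Tmcc2, Epb41 and Hba-a1 lie higher in C2 than in C10 in every library, and Myc and Gata2 lie lower in C10 than in C8.

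The promoters of 4 genes are shown because the results name them: Tfrc, a given marker near level in C10, C8 and C2, Cbx8, lower in C10 than in C8, and Tmcc2 and Epb41, lower in C10 than in C2. Each line gives the 250 bases before the gene's start in RefSeq (GRCm38.p6), 5′ to 3′ on the gene's strand, with matches to CCNCNCCC, letters found in sites of Klf factors, on either strand in capitals.
Tfrc: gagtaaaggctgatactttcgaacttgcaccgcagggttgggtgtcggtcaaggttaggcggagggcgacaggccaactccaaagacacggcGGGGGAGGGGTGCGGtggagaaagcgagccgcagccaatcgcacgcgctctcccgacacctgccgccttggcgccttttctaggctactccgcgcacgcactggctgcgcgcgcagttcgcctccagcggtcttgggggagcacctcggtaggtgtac
Cbx8: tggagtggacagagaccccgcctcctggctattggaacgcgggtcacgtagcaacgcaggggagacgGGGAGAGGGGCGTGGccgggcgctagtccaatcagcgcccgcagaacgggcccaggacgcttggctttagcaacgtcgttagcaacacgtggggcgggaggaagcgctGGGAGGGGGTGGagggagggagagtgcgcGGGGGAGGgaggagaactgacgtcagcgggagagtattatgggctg
Tmcc2: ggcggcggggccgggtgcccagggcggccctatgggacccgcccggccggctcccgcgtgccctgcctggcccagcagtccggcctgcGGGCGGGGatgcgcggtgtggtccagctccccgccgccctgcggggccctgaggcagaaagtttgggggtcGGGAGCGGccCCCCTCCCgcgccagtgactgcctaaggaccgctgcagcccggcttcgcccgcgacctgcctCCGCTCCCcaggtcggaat
Epb41: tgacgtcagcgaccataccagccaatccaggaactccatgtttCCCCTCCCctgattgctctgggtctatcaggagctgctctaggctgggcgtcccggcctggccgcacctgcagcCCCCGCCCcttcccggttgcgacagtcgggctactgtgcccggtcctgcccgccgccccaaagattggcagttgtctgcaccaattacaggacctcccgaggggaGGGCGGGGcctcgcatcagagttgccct
They lie at chr16:32608646-32608895 (plus strand), chr11:119040914-119041163 (minus strand), chr1:132391387-132391636 (minus strand) and chr4:132075314-132075563 (minus strand). The search found 3, 5, 4 and 3 matches, some of which overlap. Such letters were common, in 53.4% of 17258 promoters of the same length. They occurred in 60.7% of promoters of genes lower in C10 than in C2 and in 58.2% of those higher. The GATA letters AGATAA, searched on both strands, were found in none of the 4. They occurred in 8.82% of all the promoters, in 4.34% of those lower than C2 and in 8.06% of those higher. A match is a description of letters, and enhancers lie outside these windows.

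Against C8, the deeper Int cluster, C10 had lower scores over progenitor genes, Myc and Gata2 among them. Of 19735 genes measured, 3491 (17.7%) were called lower and 183 (0.927%) higher, and the median gene differed by -0.12. The lower genes lay at 1975 separate places when starts within 100 kb were joined. Centred on the median gene of each cluster, a shift of 0.27, the counts were 664 lower and 2295 higher (785 and 1082 after quantile normalization), so the balance of directions against C8 depends on the scaling. Of the stem, progenitor and early erythroid list, 12 of 27 genes were lower and 0 higher. Its median was -0.38 and stayed below 0 under all 12 other ways of processing, from -0.44 to -0.11. Marker lists of 5 other cell groups lay as low against C8, with medians of -0.46 for megakaryocyte and platelet, -0.43 for T and NK cell, -0.43 for B cell, -0.41 for neutrophil and monocyte and -0.40 for mast cell and basophil genes. The part of score level in these values was not tested; across all genes measured, the difference from C8 and the score level had a Spearman rho of 0.42, as a description of genes that are not independent.

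Myc, which sustains growth of early erythroblasts, had a score of 29.0, 25.1 and 31.0 in C10 and 65.1, 58.6 and 58.2 in C8. All 3 libraries of C10 lay below all 3 of C8, with a difference of -1.07 ± 0.16. It was 32.9, 27.9 and 37.7 in C5, which overlaps C10, and 20.5, 16.3 and 19.8 in C2, below it. Gata2, the progenitor GATA factor that Gata1 displaces, was 44.3, 39.0 and 40.4 in C10 and 73.9, 66.4 and 66.1 in C8, a difference of -0.73 ± 0.029. It was 41.1, 43.0 and 42.8 in C5, which overlaps C10, and 29.6, 30.6 and 30.2 in C2, below it. Cdk6 at -0.57 ± 0.071, Cited2 at -0.67 ± 0.14 and Sox6 at -0.50 ± 0.03 were also called lower than in C8. After median centring Gata2 was at -0.45, Cdk6 at -0.29, Cited2 at -0.40 and Sox6 at -0.23, all lower but short of the size rule, whereas Myc was at -0.80. Kit at -0.20 ± 0.044, Runx1 at -0.20 ± 0.036 and the myeloid factor Spi1 at -0.23 ± 0.057 did not reach the size rule. Cebpa, another myeloid factor, differed from C8 by -0.37 ± 0.17, and the signs of all 4 turned under at least 1 other scaling.

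Among erythroid transcription factors, 4 of 21 were called lower than in C8 and 0 higher, a share near the 17.7% of all genes. The list's median of -0.16 was 0.11 after median centring. Bcl11a, a repressor of embryonic globin genes, was 57.4 ± 3.73 in C10 and 95.7 ± 4.99 in C8 (SD, n = 3), a difference of -0.73 ± 0.024. Stat5a and Stat5b, neighbouring genes for the factors downstream of the erythropoietin receptor, differed by -0.90 ± 0.13 and -0.66 ± 0.14, and Nfia by -0.58 ± 0.072. After median centring Bcl11a, Stat5b and Nfia were at -0.46, -0.39 and -0.31, short of the size rule, and Stat5a at -0.63. Gfi1b at -0.38 ± 0.056 fell short of the size rule. Of the cytokine receptor and STAT5 list, 5 of 22 were lower, among them Il4ra at -0.84 ± 0.10 and the feedback inhibitor Socs2 at -0.84 ± 0.51, whereas Cish differed by 0.26 ± 0.012 and Pim1 by 0.19 ± 0.043. The median of this list was -0.22, and 0.047 after median centring. Immediate early genes were lower in 6 of 27 cases, with a median of -0.25 that was 0.018 after median centring. Jun was 22.3, 23.3 and 23.4 in C10 and 37.7, 42.3 and 37.2 in C8, a difference of -0.74 ± 0.094. Nr4a2 differed by -0.96 ± 0.11, Egr2 by -0.82 ± 0.28 and Klf2 by -0.78 ± 0.022. Jun was at -0.47 after median centring, and Egr2 and Klf2 fell just short of the size rule after quantile normalization.

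Maturation genes were close to C8, on its upper side. Of the late maturation list, 25 of 30 genes had a mean difference above 0, but 0 were called higher and 1 lower. Over all genes measured 38.4% lay above 0. The list's median was 0.13 and ran from 0.05 to 0.40 over the alternatives. Score level had a Spearman rho of 0.42 with the difference from C8 across all genes, and its part in this list was not tested. Gabarapl2 and Map1lc3b, which build autophagosomes, differed by 0.39 ± 0.042 and 0.33 ± 0.074, Bcl2l1 by 0.21 ± 0.011 and Bpgm by 0.21 ± 0.012. The one called lower was the carbonic anhydrase gene Car1, at -0.55 ± 0.076. It was at -0.28 after median centring. Globins gave a median of 0.098, with Hba-a1 at 0.12 ± 0.044 and Hbb-bs at 0.19 ± 0.054. The 2 globin genes called lower were the embryonic Hbb-bh1 and Hbb-bh2, which had low scores of 5.32 ± 0.811 and 6.51 ± 0.265 in C10. These also fell short of the size rule after median centring, at -0.35 and -0.30. Heme synthesis, iron and membrane lists had medians of 0.067, -0.0066 and -0.00079, with 1 of 16, 0 of 16 and 1 of 24 genes lower and 0 higher. Over all genes measured 17.7% were called lower than in C8. The globin and heme medians turned sign under quantile normalization, and the iron and membrane medians after median centring.

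Over all genes measured 17.7% were called lower than in C8, a balance that turned with the scaling, and the cell cycle, cohesin, interferon, stress response and p53 lists had smaller shares. For cell cycle and replication 2 of 39 were lower, Tyms at -0.78 ± 0.098 and Ccnd2 at -0.54 ± 0.095. Cdk1 was 74.7, 72.2 and 78.3 in C8, a difference of 0.10 ± 0.014. For cohesin and CTCF 1 of 17 was lower, the meiotic subunit Rec8 at -0.65 ± 0.072, and Stag1 differed by -0.11 ± 0.023, a sign that median centring turned. Interferon, integrated stress response and p53 lists had 2 of 30, 2 of 23 and 2 of 21 lower and 0 higher, among them Trib3 at -0.51 ± 0.12 and Phlda3 at -0.59 ± 0.081. Ccnd2, Rec8, Trib3 and Phlda3 fell short of the size rule after median centring and after quantile normalization, and Tyms after the latter. Another list held 11 genes that led the genotype comparison in an earlier analysis of these libraries. It had 3 lower than in C8, Gata2 among them, and 0 called against C5. Against C2, of 9 measured, 2 were higher and 2 lower. The shares over all genes were 19.5% higher and 4.16% lower against C2, and 1.23% and 1.85% against C5. Of the clustered protocadherin genes, best known from neurons, 22 of 34 measured were lower than in C8 and 0 higher, with a median of -0.78 (-0.50 after median centring and after quantile normalization). They lie on 1 chromosome.

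Outside these lists, the genes with the lowest values against C8 by the naming rule were Syna, Cbx8, Spdye4b, H2afy3, Gas8, Olfr920, Gfra4 and Aqp8, from -1.49 to -1.27. Syna, Spdye4b and Olfr920 were under 5 in C10 and reached the minimum only through C8. Cbx8, a subunit of Polycomb repressive complexes, was 13.9, 12.7 and 13.9 in C10 and 41.8, 36.0 and 40.7 in C8, a difference of -1.48 ± 0.04. It was 25.7, 21.4 and 23.6 in C5, also above C10, and 11.2, 10.7 and 10.4 in C2, below it. The highest against C8 were Wnt5a, Olfr845, Vmn2r-ps60, Tshz3, Rfpl4b, Rprl1, Stk32b and Olfr1297, from 0.70 to 0.76. Their mean scores in C10 were only 6.60 to 15.4, close to the minimum set for a gene to be measured, a mean of 5 over the libraries of both clusters. Of the 8, Wnt5a, Olfr845, Vmn2r-ps60 and Olfr1297 were under 5 in C8 and reached the minimum only through C10. Against C2 the lowest were Xpo7, Fam229a, Tmem131l, Sdr39u1, Tmcc2, Zfp874a, Bco2 and Zfp33b, from -2.21 to -1.51. The highest against C2 were Tenm3, Gdpd2, Spock1, Ajap1, BC064078, Fam19a5, Tshz3 and Csmd1, from 2.07 to 2.24, with scores in C10 of 9.42 to 64.4. In C2 their scores ran from 1.48 in Tshz3 to 14.8 in Csmd1, and all but Csmd1 lay under 5, so these 7 reached the minimum mean of 5 only through C10. Tenm3, Csmd1 and Spock1 among them are long genes best known from the nervous system.

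Against C5, the shallow Int cluster, C10 showed few differences. Of 19480 genes measured, 240 (1.23%) were called higher and 361 (1.85%) lower, and 76.1% had a mean difference within 0.25. After median centring the counts were 166 and 521. With 1 library left out they were 330 to 478 and 564 to 645. The sign and the mean then rested on only 2 libraries, and the cause of the larger counts was not tested. The differences of single genes were correlated between libraries only at Pearson r of 0.28 to 0.30 across genes, compared with 0.81 to 0.82 against C8 and 0.89 to 0.90 against C2; genes are not independent, and all of these comparisons share the C10 nuclei. C5 itself was the noisiest cluster, with a median SD over libraries of 0.16 (log2) against 0.078 in C10. Of the lists of erythroid, growth, stress and cell cycle genes, 3 held a gene called lower than in C5: Hhex among progenitor genes at -0.56 ± 0.48, Dusp2 among immediate early genes at -0.62 ± 0.037 and Ddit4l among p53 targets at -0.69 ± 0.19. None of them held a gene called higher. Their medians ran from -0.17 for the given markers and -0.14 for stem, progenitor and early erythroid genes to 0.036 for late maturation genes, beside 0.015 over all genes. The globin list had a median of -0.11, heme synthesis -0.086, iron handling 0.0048 and the membrane list -0.051. Cell cycle, cohesin, cytokine receptor, interferon, stress response, p53, immediate early and erythroid factor lists gave -0.0071, -0.031, -0.035, 0.031, 0.0002, 0.028, -0.071 and -0.061. Those of the globin, iron, late maturation, cytokine receptor, interferon, stress response and p53 lists turned sign under at least 1 alternative. The lowest genes by the naming rule were Vmn1r37, Olfr1512, Dppa5a, Olfr616, Dlk2, Il19, Nptx2 and Id2, and the highest Dbpht2, Pom121l12, Mrgpra4, Fam84a, Olfr297, Mkrn3, Olfr845 and Dusp26. Most genes called against C5 had low scores: among genes with a mean of at least 20, only 54 were higher and 10 lower. The minimum of 5 is a mean over both clusters, so a gene high in 1 of them could pass through that cluster alone. Id2, an inhibitor of basic helix-loop-helix factors, was 10.1, 8.25 and 7.76 in C10 and 31.3, 11.2 and 13.7 in C5, where replicate 1 stood far above the others.

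The counts against C5 differed in nuclei matched on depth, which also left fewer nuclei. With nuclei matched on fragments in each library (214, 199 and 241 per cluster), C10 had 3178 genes lower than C5 and 268 higher in place of 361 and 240. The matched C10 nuclei were its shallow ones, at medians of 8507 to 9342 fragments, and the matched C5 nuclei its deep ones. Of the 361 genes, 283 were also called lower in the matched nuclei, and of the 240 genes 49 were also called higher. Myc then differed from C5 by -0.90 in place of -0.20, and Jun by -0.66 in place of -0.37. Marker lists of other cells also moved down in these nuclei. T and NK cell genes had a median of -0.60 in place of -0.10, and megakaryocyte and platelet genes, which moved least far below 0, -0.23 in place of -0.019. The late maturation list went the other way, to 0.091 from 0.036. A comparison within C10 was added after the data were seen. Nuclei of each library were split into 3 equal groups by fragments. The deepest group had 2099 genes (10.9%) called higher than the shallowest and 5 (0.026%) lower, of 19258 measured. Kit differed between these groups by 0.42 ± 0.047, Myc by 0.42 ± 0.29 and Hba-a1 by -0.29 ± 0.12. Klf1 at -0.065 ± 0.089 and Xpo7 at -0.13 ± 0.15 differed less. In matched nuclei against C2, Xpo7 was -2.11, Tmcc2 -1.39, Hba-a1 -0.53 and Hemgn 0.78, whereas Kit was 0.44 in place of 0.83. In matched nuclei against C8, Myc was -0.88 and Gata2 -0.70.

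**Figure D3:**
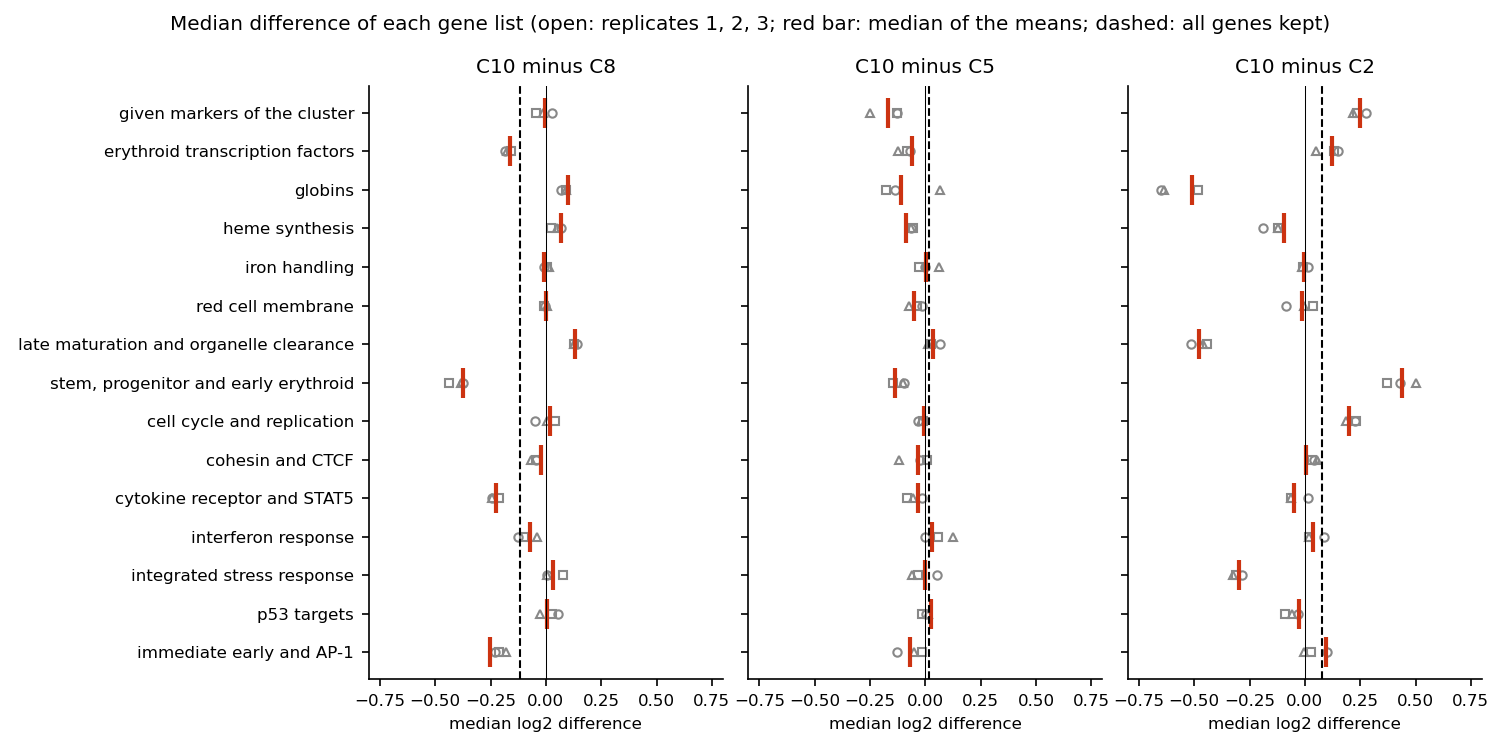
Median log2 difference of C10 from C8, C5 and C2 (horizontal axes) for 15 gene lists; open marks are the 3 libraries, red bars the medians of the mean differences, and dashed lines the median of all genes measured. Late maturation genes and globins lie at -0.48 and -0.51 against C2, and stem, progenitor and early erythroid genes at -0.38 against C8 and 0.44 against C2.

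The genes that separate C8 from C2 were used to describe where C10 lay relative to both. They were chosen for lying far apart in C8 and C2, and this choice favours in-between values for any other cluster. The shares below therefore do not show that C10 is an intermediate state. Of 859 genes called higher in C2 than in C8, 82.9% had a C10 value between the 2 clusters, and the median gene of C10 had gone 30.4% of the way from C8 to C2 on the log2 scale (30.4, 30.7 and 29.4% in the 3 libraries). Of 7472 genes lower in C2 than in C8, 72.5% lay between, at a median of 44.4% of the way. For C5, 69.6% and 77.0% of the same genes lay between, at medians of 22.6% and 32.4% of the way. After median centring the sets were 4602 and 2482 genes, C10 lay at 48.7% and 23.2% of the way, and C5 at 47.3% and -1.72%. Of the 2482 genes, 59.8% then lay between in C10 and 35.2% lay beyond C8. Xpo7, Tmcc2, Ube2h and Epb41 were not midway: their C10 means of 72.9, 234, 111 and 276 were near the C8 means of 66.8, 207, 112 and 254. Myc was nearer to C2. Such positions compare clusters that the authors drew from these data, and order in time was not measured.

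Few genes set C10 apart from C8, C5 and C2 at once. Of 17909 genes measured in all 3 comparisons, 34 (0.19%) were called higher in C10 than in each of the others, and 2 (0.0112%) were lower. By the naming rule the higher ones were led by Tshz3, Olfr297, Vmn1r72, Mkrn3, Ntm, Adamts9, Nrg1, Dclk1, Adgrb3 and Opcml. Tshz3, a zinc finger factor of developing muscle and neurons, had a score of 8.07, 9.75 and 10.4 in C10, 6.91, 3.33 and 6.17 in C8, 4.91, 5.18 and 6.08 in C5 and 1.17, 1.85 and 1.42 in C2. It reached the minimum mean of 5 against C2 only through its score in C10, so its place at the head follows in part from the filter. These are low scores, and 28 of the 34 genes were under 20 in C10, at a median of 10.4 beside 30.6 over all genes measured. The 34 genes had a median of 3 other genes within 500 kb, against 16 over all. Genes with such low scores could reach the minimum through C10 alone, so this trait may follow in part from the filter. Without a filter, 133 genes were higher. The 2 lower genes were Stac2, at 8.52, 8.15 and 8.34 in C10 and 15.0, 12.6 and 13.9 in C8, and 2210416O15Rik, named after its values were seen. The count of 34 moved with most settings: it was 4 among genes with a mean of at least 20, 2 with a pseudocount of 5 and 40 to 85 with 1 library left out, the most without replicate 1. In matched nuclei it was 40, of which 7 were among the 34, and 242 genes were then lower. The highest C10 score among the 34 was 47.6.

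The number of neighbouring genes moved with the difference from C2. Genes were put into 5 equal groups by that number. In the group with the fewest neighbours (0 to 7 others within 500 kb) the median difference was 0.47, with 48% called higher, and it was -0.068 in the group with the most (33 to 85), with 6.6% called higher. The 3 libraries gave 0.45, 0.41 and 0.50 in the first of these groups. The values were 0.32 and -0.22 after median centring, 0.22 and -0.12 after quantile normalization, and 0.23 and -0.11 in nuclei matched on fragments. Gene length, split in the same way, also moved with the difference from C2. The group of the longest genes had a median of 0.37 with 40.8% called higher, and the middle group 0.0053 with 9.46%. Score level had a Spearman rho of -0.40 with the difference from C2 across all genes measured. Neighbour number, length and score level were not separated. Low-scoring genes could also reach the minimum through C10 alone. Olfactory receptor genes, best known from the nose, were higher in C10 than in C2 in 45 of 126 measured and lower in 3, with a median of 0.35. Only these 126 of 1110 reached the minimum mean over both clusters. A low-scoring gene could reach it through 1 cluster alone, so the split may follow in part from the filter. The shares over all genes were 19.5% and 4.16%, and after quantile normalization 16 of these genes were higher and 18 lower, with a median of -0.061. Against C8 the group with the fewest neighbours was at 0.020 and the other 4 between -0.19 and -0.12, and against C5 all 5 lay between -0.011 and 0.048. After median centring all 5 against C8 lay above 0, from 0.078 to 0.29. In nuclei matched on fragments all 5 against C5 lay below 0, from -0.11 to -0.038. Within C10, the deep nuclei exceeded the shallow nuclei by 0.22 in the group with the fewest neighbours and by 0.080 in that with the most, over the genes measured against C2.

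**Figure D4:**
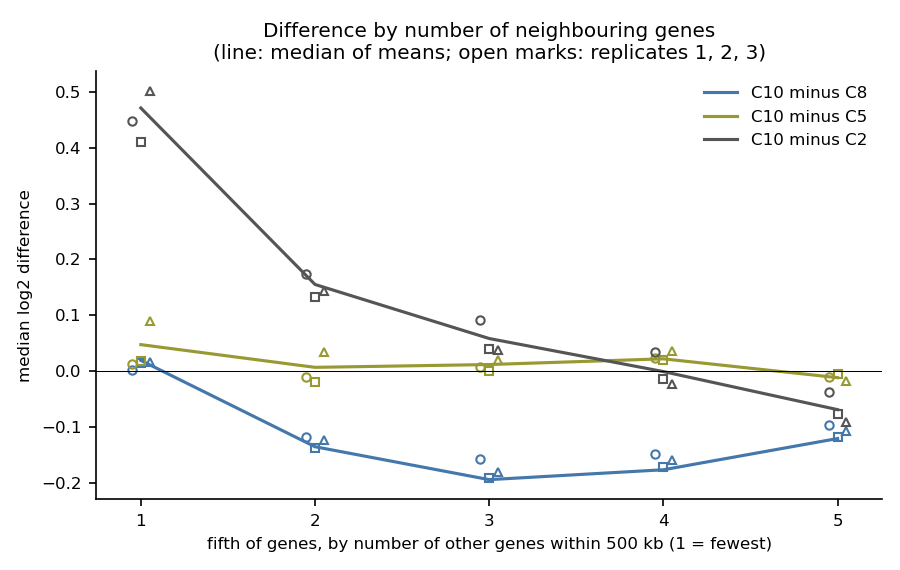
Median log2 difference of C10 from C8, C5 and C2 (vertical axis) in 5 equal groups of genes by the number of other genes within 500 kb (horizontal axis, group 1 has the fewest); lines join medians of the mean differences and open marks are the 3 libraries. The line for C2 starts at 0.47 and ends at -0.068, and that for C5 stays between -0.011 and 0.048.

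The 3 libraries of C10 were alike. Across 19242 genes the log2 scores of any pair were correlated at Pearson r of 0.994 (genes are not independent replicates), and 95.5% of the genes had an SD under 0.25. Among genes with a mean of at least 20, the widest spreads included Ifi27 with 36.1, 58.1 and 29.3 and the stress response gene Chac1 with 28.1, 32.0 and 51.4. Replicate 2 stood high in the first and replicate 3 in the second. These genes were chosen after their values were seen. With 2 WT nuclei in C10, a comparison of genotypes within the cluster was not possible. In the WT Int cluster of like depth, C11 (3607 WT nuclei, median 14792 fragments), the score of Gata2 was 16.0, 18.4 and 14.9, below all 3 C10 libraries, and that of Hba-a1 was 183, 175 and 194, above them. Xpo7 was 65.1, 63.2 and 69.8 there. Gata2 belongs to the list that led the genotype comparison in an earlier analysis of these libraries, so its difference between KO and WT nuclei was known beforehand. Cluster and genotype cannot be told apart in these values.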

How the data were processed

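Mouse Ter119+ erythroblast nuclei from 3 KO and 3 WT libraries were described with a table of gene scores and a table of nuclei. The gene score is a signal that the authors scaled so that each nucleus sums to about 10000 over genes. How it was made is not given in the sources used here; the column names are those of an ArchR project, and Cell Ranger and mm10 are named per the submitters' processing notes. The authors deposited for each nucleus a count of fragments, a nucleosome ratio, a fraction of fragments in promoters and in peaks, a start site enrichment score and a doublet score, with library, genotype, cluster and class. Library names in the tables matched sample labels, and 0 columns of values had no sample.

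Scores of the KO nuclei of C10, C8, C5 and C2 were averaged per library, rescaled to a total of 1000000 and compared within each library as log2(score + 1). Genes whose mean reached 5 over both clusters and 3 libraries were kept, and those past 0.5 in mean with the same sign in all 3 libraries were called. No p-value was computed, since the clusters were drawn from the same values; with 3 libraries an exact paired test could not go below 0.25. No doublet caller was run. The members, the 23 gene lists and the tests were chosen with earlier results of these data known.

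Genes were named by rule: the 8 highest and the 8 lowest called genes per comparison, 10 each way for C10 apart from all 3 clusters (passing over predicted and small RNA genes and neighbours within 100 kb), the 2 members of each list with the largest difference against each cluster, and a set of fixed genes. Other list members were named after their values were seen. Over 14 alternatives, pseudocount, filter, scaling, nuclei, weighting, size rule and libraries were changed; the split of C10 by depth was added after seeing the data. Promoter sequences were read from a RefSeq table (GRCm38.p6), which matched 17258 genes within 1000 bases of the start in the files. Scripts used scipy 1.17.1, pandas 2.3.3 and numpy 2.4.6 under Python 3.11.15 and were tested on simulated data. The accessibility libraries of WT mice were used only where named, and RNA, CUT&RUN and progenitor libraries were not used here.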

Additional observations from a re-analysis of the deposited data

How the results depend on the processing

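No paired analysis was possible because the reported differences were already taken within each library, so pairing could not be added as an alternative. The values come from no test. Counts are given as higher and lower in C10, against 183 and 3491 (C8), 240 and 361 (C5), 3501 and 747 (C2) and 34 and 2 (apart from all 3) as reported. With a pseudocount of 5 they were 13 and 1532 for C8, 42 and 48 for C5, and 2 and 0 apart; with 0.5, 9 genes were lower apart. With a minimum mean of 20 they were 13 and 871 for C8, 54 and 10 for C5, 1081 higher for C2, and 4 and 0 apart. Without a filter they were 455 higher for C8, 635 and 571 for C5, 6891 higher for C2, and 133 and 5 apart.

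Median centring gave 2295 and 664 for C8, 166 and 521 for C5, 2439 and 1644 for C2, and 62 and 10 apart. Quantile normalization gave 1082 and 785 for C8, 2029 and 1651 for C2, and 104 and 19 apart. Nuclei matched on fragments gave 883 and 2336 for C8, 268 and 3178 for C5, 1944 and 1932 for C2, and 40 and 242 apart. Without the 5% of nuclei with the highest doublet enrichment, 54 and 7 genes stood apart. Weighting by fragments gave 875 lower for C5 and 13 lower apart. A size rule of 0.25 gave 1852 and 7453 for C8, 1890 and 1778 for C5, 6203 and 2788 for C2, and 320 and 158 apart; a rule of 1 gave 0 and 91, 2 and 1, 993 and 72, and 0 and 0. With 1 library left out the counts were 170 to 293 higher and 3193 to 3897 lower for C8, 330 to 478 and 564 to 645 for C5, 3445 to 3617 and 743 to 851 for C2, and 40 to 85 and 13 to 19 apart. The cause of these shifts was not tested, beyond fewer genes or libraries entering.

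Among the genes listed or named, the p53 target Perp was the one called gene whose sign turned: C10 minus C2 was 0.66, and -0.22 in matched nuclei. Differences from C5 were the least alike between libraries, for a cause that was not tested.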
